A study of Mus musculus with 16 samples.

Results

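Of the 8404 regions that were listed as carrying more histone H3 lysine 9 beta-hydroxybutyrylation (H3K9bhb) in the occipital cortex of fasted than of fed mice, 353 lay where the ends of 2 or more protein-coding genes met. A region was taken when it lay on chromosomes 1 to 19, overlapped the 1 kb on either side of an annotated end (start or 3′ end) of at least 2 different protein-coding genes, and stood outside every run of at least 5 regions spaced no more than 20 kb from each other. Of 7840 autosomal regions, 489 lay in such runs and 7351 did not. The 353 shared regions were 4.80% of the latter and 14.8% of the regions at any protein-coding gene end. Another 2039 regions lay at the ends of 1 gene, and 4959 lay at none.

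The libraries came from occipital cortex homogenates. The C57BL/6J mice were 35 days old (P35) and had been either fasted for 48 hours or fed ad libitum. Chromatin was immunoprecipitated with an antibody to H3K9bhb, with 4 immunoprecipitated and 4 input libraries in each state and 16 in all. The values used here are 1 list of regions per state, compared between the states by the authors, where every region carries a log-LR, a log likelihood ratio. The ad libitum list held 1 region, on chromosome 3, which was at no protein-coding gene end. No value per library was analysed, so replicate spread and sequencing depth are unknown, and no comparison below could be tested against the spread between mice. The intervals given for shares and medians are 95% intervals that cover only the number of genes, gene pairs or regions counted. In a homogenate, a change in the makeup of cells and a change in the mark within cells cannot be told apart, and a list of regions does not allow a check of the tissue by the expression of its markers.

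Beta-hydroxybutyrate is the main ketone body that the liver releases during fasting, and it can be attached to histone lysines as an acyl mark. Many mammalian genes lie head to head, so that 1 stretch of DNA serves as the promoter of both and transcription leaves it in opposite directions. Such shared promoters are usually rich in CpG, often drive housekeeping genes, and keep a nucleosome-poor stretch between the starts with modified nucleosomes just inside each gene.

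The DNA between the starts is printed here for the 3 opposite-strand pairs with the highest log-LR and for 2 further pairs. This stretch is the promoter that the pair shares, and the regions lay beside it or partly in it. The sequences are from RefSeq on mm10 (GRCm38.p6), 5′ to 3′ on the plus strand, from the first base after the start of the leftward gene to the last base before the start of the rightward gene. Capitals mark matches, on either strand, to CCAAT, to the ETS motif CCGGAAG, to the SP1 motif GGGCGG, to TGACG, one side of a CRE motif (here short CRE), or to the TATA motif TATAAA. The 73 bases at chr2:105904565-105904637 separate Elp4, a subunit of the Elongator complex that modifies transfer RNAs, from Immp1l, a peptidase subunit of the inner mitochondrial membrane.
Elp4/Immp1l: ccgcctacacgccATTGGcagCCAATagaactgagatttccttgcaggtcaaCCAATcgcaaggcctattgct
The 237 bases at chr11:86683837-86684073 separate Vmp1, a membrane protein of autophagosome formation, from Ptrh2, a mitochondrial peptidyl-tRNA hydrolase.
Vmp1/Ptrh2: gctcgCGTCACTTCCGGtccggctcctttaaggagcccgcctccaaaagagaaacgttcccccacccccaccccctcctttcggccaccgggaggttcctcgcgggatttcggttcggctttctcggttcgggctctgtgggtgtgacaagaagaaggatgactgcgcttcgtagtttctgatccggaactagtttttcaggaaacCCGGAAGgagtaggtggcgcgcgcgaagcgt
The next pair is Aldh6a1, an enzyme of valine breakdown, and Lin52, a subunit of the DREAM complex. Of the 483 bases between its starts, the 250 on the Lin52 side, at chr12:84451258-84451507, are given.
Aldh6a1/Lin52: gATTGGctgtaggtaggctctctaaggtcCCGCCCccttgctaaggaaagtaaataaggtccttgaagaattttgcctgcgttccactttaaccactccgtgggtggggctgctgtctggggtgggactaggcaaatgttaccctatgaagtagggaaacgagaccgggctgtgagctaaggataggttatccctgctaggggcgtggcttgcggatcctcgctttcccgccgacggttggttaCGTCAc
Sirt3, the main mitochondrial deacetylase, and Psmd13, a subunit of the proteasome lid, form a textbook divergent pair with 84 bases between the starts, at chr7:140882310-140882393.
Sirt3/Psmd13: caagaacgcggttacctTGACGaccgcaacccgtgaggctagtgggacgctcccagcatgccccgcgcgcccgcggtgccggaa
The histone genes H2ac22 and H2bc22, chosen for printing after their values were seen, have 234 bases between them, at chr13:21787249-21787482.
H2ac22/H2bc22: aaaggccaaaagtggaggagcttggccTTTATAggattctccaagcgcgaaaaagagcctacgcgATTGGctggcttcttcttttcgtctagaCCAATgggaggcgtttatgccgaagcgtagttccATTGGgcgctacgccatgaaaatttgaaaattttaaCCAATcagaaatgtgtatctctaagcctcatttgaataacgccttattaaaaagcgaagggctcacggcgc

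Read side by side, the stretches had no marked motif that was found in all of them, though CCAAT and the short CRE each recurred. The Elp4/Immp1l stretch held 3 CCAAT boxes, at bases 14 to 18, 22 to 26 and 53 to 57 from its left end, and only 3 CpG. The Vmp1/Ptrh2 stretch held 23 CpG, a short CRE at bases 6 to 10, and ETS motifs at 11 to 17 and 207 to 213. The printed part of the Aldh6a1/Lin52 stretch held 12 CpG and a CCAAT box at bases 2 to 6. It also held an SP1 motif at 30 to 35 and a short CRE at 245 to 249. The Sirt3/Psmd13 stretch held 12 CpG and a short CRE at bases 18 to 22. The H2ac22/H2bc22 stretch held a TATA motif and 4 CCAAT boxes, letters long known from the promoters of histone genes that are switched on in S phase. The listed regions lay mostly beside these stretches, but a second, weaker region at Vmp1/Ptrh2 reached into its stretch. The region with the higher log-LR at each of the 5 pairs covered none of the printed bases, except at Sirt3/Psmd13, where it covered 8.

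The genes at the shared regions of highest log-LR were of many kinds. The highest log-LR, 16.0, belonged to the region at chromosome 2, 156112389 to 156112516, at the starts of Cpne1, a calcium-dependent membrane-binding protein, and Rbm12, an RNA-binding protein, which are annotated on the same strand. It overlapped neither gene body. Cpne1 and Rbm12 have the same annotated start, so their count as different starts is uncertain. The Elp4/Immp1l region followed with a log-LR of 10.2, at chromosome 2, 105904162 to 105904431, centred 268 bp inside Elp4. These were the only shared regions with a log-LR of 10 or more.

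At Vmp1/Ptrh2 the list held 2 regions. The one with a log-LR of 9.78, at chromosome 11, 86683432 to 86683718, was centred 261 bp inside Vmp1. The other, at 86683785 to 86683929 with a log-LR of 6.70, was centred between the starts and reached into the stretch printed above. The Aldh6a1/Lin52 region (chromosome 12, 84450639 to 84450827) was centred 291 bp inside Aldh6a1, and its log-LR was 9.67. The Dnaic1/Enho region on chromosome 4 had a log-LR of 9.66. Enho encodes adropin, a secreted peptide of energy homeostasis, and Dnaic1 a dynein chain of motile cilia. The region at Ppme1, a methylesterase acting on protein phosphatase 2A, and C2cd3, a protein of centriole elongation, had a log-LR of 9.62 and was centred 148 bp inside Ppme1.

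The remaining 4 of the 10 regions with the highest log-LR differed in arrangement. The Fam210a/Rnmt region on chromosome 18 had a log-LR of 9.61, and Rnmt encodes the enzyme that methylates the messenger RNA cap. The Vars2/Gtf2h4 region, on chromosome 17, lay at the start of Vars2, the mitochondrial valyl-tRNA synthetase, and the 3′ end of Gtf2h4, a subunit of the transcription factor TFIIH. It had a log-LR of 9.35 and was centred 318 bp inside Vars2. The Lrrc26/Grin1 region had a log-LR of 9.18 and is counted below among pairs of 3′ ends. Grin1 encodes the obligatory NMDA receptor subunit, but the region lay by its 3′ end and 374 bp inside the start of Lrrc26, an auxiliary subunit of BK potassium channels. The Fbxw2/Gm34653 region had a log-LR of 8.77 and was centred 308 bp inside Fbxw2, an F-box protein of ubiquitin ligases.

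As a set, the shared regions had about the same median log-LR as the rest. Their log-LR ran from 3.11, at Ttll13/Ngrn, to 16.0, with quartiles of 4.22 and 6.07 and a median of 4.82 (interval 4.70 to 5.05). Regions at the ends of 1 gene had a median of 4.91 (4.84 to 4.99), and regions at no gene end one of 4.84 (4.78 to 4.90). The 3 intervals overlapped. The groups differed at the top of the range. A log-LR of 10 or more was found for 2 shared regions (0.567%), for 23 regions at 1 gene (1.13%) and for 218 regions at no gene end (4.40%), and the highest values were 16.0, 88.1 and 1371. The median width was 206 bp (196 to 216), against 203 bp at 1 gene and 200 bp at none. The shared regions were all between 120 and 676 bp wide. The distributions are drawn in the plot of log-LR by kind of place.

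**Figure D1:**
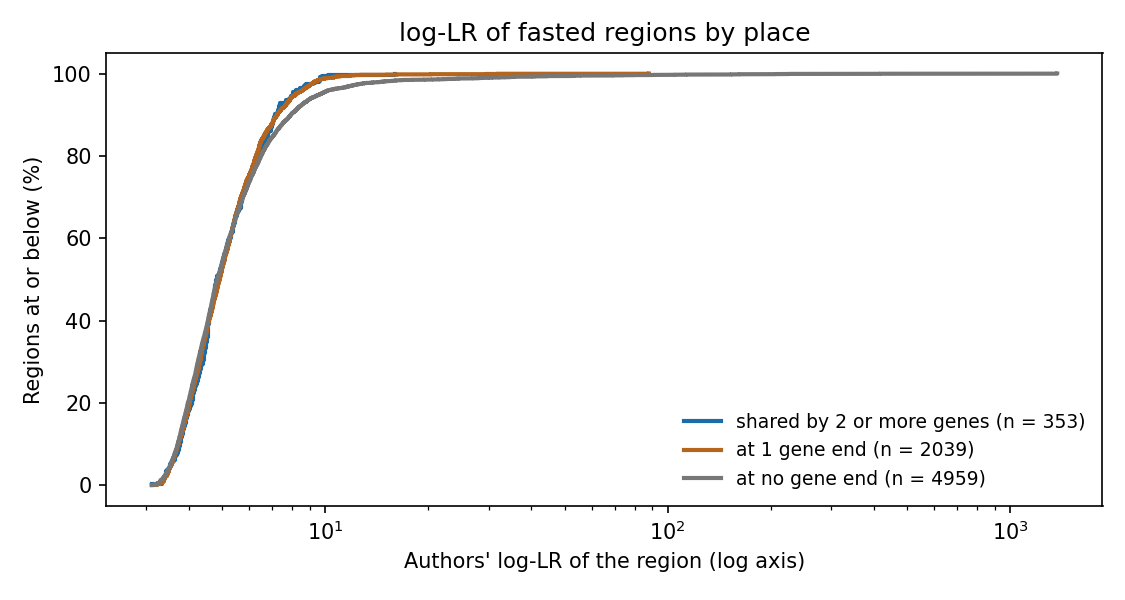
Cumulative share of the listed regions (vertical axis, percent) at or below each log-LR (horizontal log axis, no unit), with 1 line for regions shared by 2 or more genes, at the end of 1 gene and at no gene end. The lines run together around the medians of 4.82, 4.91 and 4.84, and the line of the shared regions ends at 16.0, those of the others at 88.1 and 1371.

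The widest shared region, 676 bp with a log-LR of 5.69, lay at Arf3, a small GTPase of Golgi traffic, and the predicted gene LOC115488470. Next came Gm51579/Otud4, at 563 bp and 5.14, with Otud4 a deubiquitinase. Cebpg/Gm45095 followed at 510 bp and 7.89, with Cebpg a bZIP transcription factor. The region at Gtf3c4 and the helicase gene Ddx31 was 493 bp wide with a log-LR of 7.09. The region at Exoc5, of the exocyst, and Ap5m1, of the AP-5 adaptor, was 480 bp wide with a log-LR of 7.06. In 3 of these 5 the partner was a predicted gene known only by a Gm or LOC number, and over all 353 such a gene, or one with a Rik name, took part in 41.

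In all, 344 shared regions touched 2 genes and 9 touched 3. Together they touched 676 genes in 353 different pairs. The 3-gene region with the highest log-LR, 8.02, lay at Eme2, Mrps34 and Nme3. The lowest, 4.11, lay at Topors, Smim27 and Ndufb6. The Senp3/Tnfsf13/Tnfsfm13 region had a log-LR of 7.93, but Tnfsfm13 is a readthrough annotation over its neighbours, so its count of genes is uncertain. The others were Rad17/Taf9/Ak6 (6.52), Atf5/Nup62/Il4i1b (6.36), Mtf1/1110065P20Rik/Yrdc (5.70), Prdx5/Trmt112/Esrra (5.45), Adam15/Dcst1/Dcst2 (5.06) and Psme3ip1/LOC115486880/Rspry1 (4.98). Esrra encodes a nuclear receptor that drives genes of mitochondrial energy metabolism, and Prdx5 an antioxidant peroxiredoxin.

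The strand was given for every gene of 264 shared regions, and these showed how the ends lay. In each of the 256 of them with 2 genes, the pair was classed by its 2 ends closest to each other. Of these, 203 (79.3%) lay at a pair of starts on opposite strands and 43 at a start and a 3′ end. Another 7 lay at starts on the same strand and 3 at a pair of 3′ ends. The median log-LR was 4.96 at opposite-strand starts (4.64 to 5.18) and 4.60 at a start with a 3′ end (4.44 to 4.93), and these intervals overlapped too. The bodies of the genes were overlapped once in most cases. Of all 353 regions, 276 (78.2%) overlapped 1 of their gene bodies, 69 overlapped 2, 1 overlapped 3 and 7 overlapped none.

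Pairs made of starts had the higher shares with a region and pairs of 3′ ends the lowest, as the plot of shares by kind of place shows. Over the autosomes, 4703 gene pairs had ends within 2 kb, the reach of the rule, and 353 of them (7.51%, the share over all pairs; interval 6.79 to 8.29) held a shared region. Among pairs of opposite-strand starts, 203 of 976 (20.8%, 18.4 to 23.5) held one. Among pairs of a start and a 3′ end, 50 of 953 (5.25%, 4.002 to 6.85) did. Among pairs of 3′ ends, 7 of 1078 (0.649%, 0.315 to 1.33) did. Starts on the same strand were few, with 9 of 39 (23.1%, 12.6 to 38.3), and the gene bodies overlapped in all 39. Where the strand of a gene was not given, 84 of 1657 pairs (5.07%) held one. Lone ends, with no end of another protein-coding gene within 2 kb, followed the same order. A region lay within 1 kb of 1386 of 13133 lone starts (10.6%, 10.04 to 11.1) and of 43 of 12885 lone 3′ ends (0.334%, 0.248 to 0.449).

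**Figure D2:**
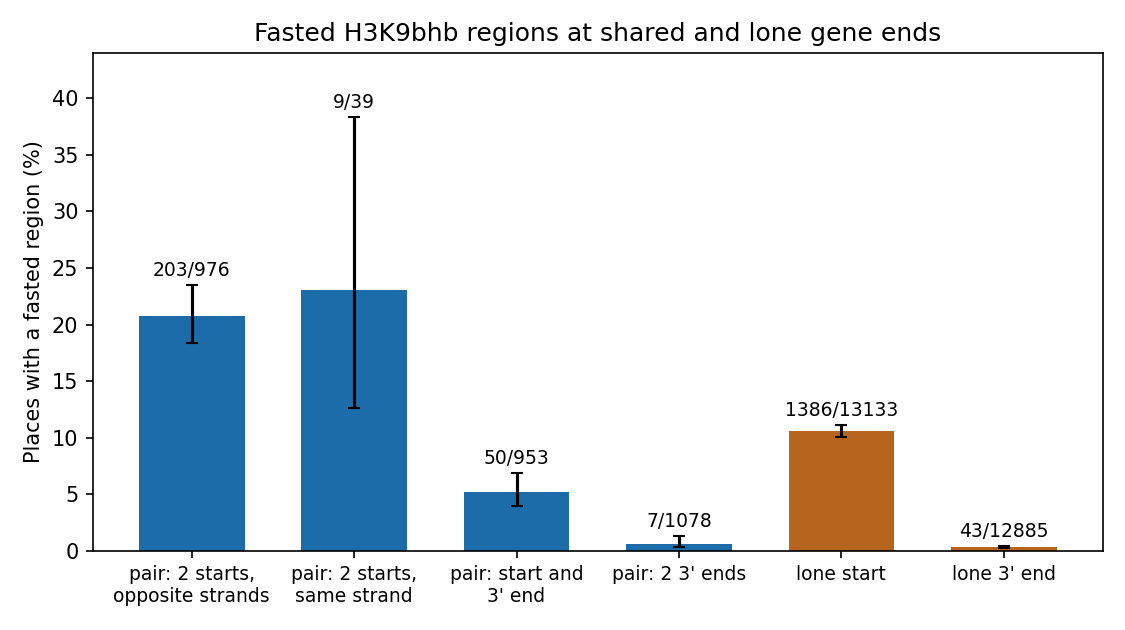
Share of places with a listed region (bars, vertical axis in percent, from 0) for 4 kinds of pairs of gene ends and for lone ends, with 95% Wilson intervals and the counts above the bars. Opposite-strand starts stand at 20.8%, lone starts at 10.6%, and 3′ ends, alone or in pairs, under 1%.

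A pair offers 2 genes in which a region can lie, so the 20.8% and the 10.6% are not per start. The share per start depends on what is counted. In pairs of opposite-strand starts with a gap between them, a region was centred in the first 1 kb of the gene at 141 of 1239 starts (11.4%, 9.73 to 13.3). At lone starts this was so for 1257 of 13133 (9.57%, 9.08 to 10.1), and the intervals overlapped. With overlapping pairs included it was so for 250 of 1936 starts (12.9%, 11.5 to 14.5), above the interval of lone starts, but there 1 region can lie in both genes and count for both starts. A region of any position within 1 kb was found at 430 of these 1936 starts (22.2%, 20.4 to 24.1), where 1 region likewise counts for both starts, against the 10.6% of lone starts. Within 1 kb around the midpoint of the starts, a window of the size used for a lone start, 220 of 976 pairs (22.5%, 20.03 to 25.3) held a region. Whether the gene bodies overlapped made little difference, with 74 of 350 pairs (21.1%) where they did and 129 of 626 (20.6%) where they did not.

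Gapped pairs seldom had a region in both genes. Of the 626 gapped pairs, 138 (22.0%) had a region centred in the first 1 kb of 1 gene, and 2 (0.319%) had one in both. These were Ikzf5/Acadsb and Nhlrc3/Proser1. At Ikzf5, a zinc finger transcription factor, and Acadsb, an acyl-CoA dehydrogenase of branched-chain amino acid breakdown, the log-LR was 4.48 in Ikzf5 and 7.11 in Acadsb. At Nhlrc3/Proser1 it was 4.34 and 4.54. Over all arrangements, 18 gene pairs held 2 shared regions each, with 66 to 1245 bp between the regions and a median of 590 bp. Among these was Zbtb25/Zbtb1, with log-LR values of 4.53 and 6.82.

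The distance between opposite-strand starts had little relation to the share up to about 500 bp, as the plot of share by spacing shows. The share was 20.8% for gaps of 0 to 100 bp (59 of 283), 25.8% for 101 to 250 bp (40 of 155) and 25.9% for 251 to 500 bp (22 of 85). It was 14.3% for 501 to 1000 bp (6 of 42) and 3.28% for 1001 to 2000 bp (2 of 61, interval 0.904 to 11.2). The last values follow in part from the rule, since a region must lie within 1 kb of both starts, which leaves less room inside the genes as the gap widens. Where the genes overlapped, the share was 19.6% for overlaps of 1 to 250 bp and 22.3% for longer ones. The distance to the second gene end, which the rule limited to 1 kb, did not sort the log-LR. The 107 regions within 250 bp of it had a median of 4.82, and the 59 regions at 751 to 1000 bp had 4.73. The 38 regions just outside, at 1001 to 1250 bp, had 4.77.

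**Figure D3:**
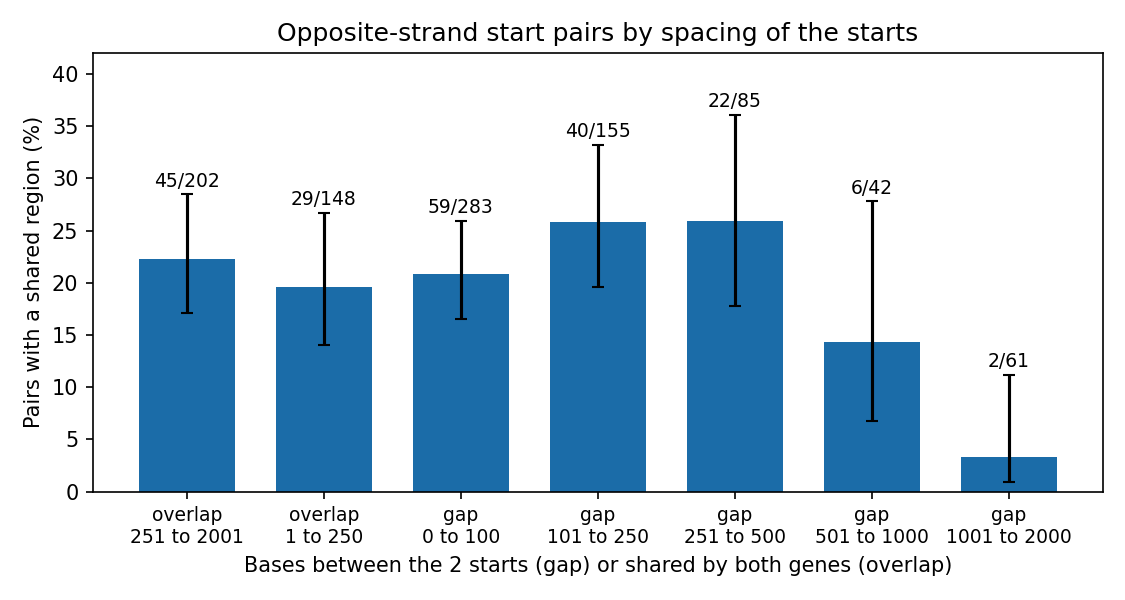
Share of opposite-strand start pairs with a shared region (vertical axis, percent, with 95% Wilson intervals) by the number of bases between the starts, or shared by both genes where they overlap, with the counts above the bars. Shares stand between 19.6% and 25.9% up to 500 bp and at 3.28% from 1001 to 2000 bp, where the rule leaves little room inside the genes.

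At gapped pairs, 127 regions could be placed, with a median of 108 bases between the starts (quartiles 53.5 and 235.5). Of these, 56 (44.1%) were centred inside the gene on the minus strand, 66 (52.0%) inside the gene on the plus strand, and 5 (3.94%, 1.69 to 8.89) between the starts. The stretch between the starts is short, and on average it made up 9.50% of the span in which the centre of such a region could lie. The share of 3.94% was lower than this 9.50%, and the difference was not tested. The centre lay a median of 291 bp from the nearest start, on the side of the gene, with quartiles of 193.5 and 397.5 bp. Of the 122 regions centred inside a gene, 119 overlapped the body of 1 gene only.

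The 5 regions centred between the starts were the weaker Vmp1/Ptrh2 region (6.70), Gm46977/Etv6 (6.61), Mtx1/Thbs3 (5.82), Septin10/Sowahc (5.43) and Thap2/Zfc3h1 (3.80). They were singled out after their values were seen. Their starts lay 237, 387, 1272, 421 and 363 bases apart, more than the median of 108. A wider gap leaves more room for a centre between the starts, so this follows in part from how regions were placed. In pairs with overlapping bodies, 28 of 76 regions lay in the stretch that belongs to both genes, 23 lay past it in the minus-strand gene and 25 past it in the plus-strand gene.

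Regions at lone starts lay on the same side of the start. Of 1494 such regions, 1363 (91.2%, 89.7 to 92.6) were centred inside the gene, against 122 of 127 (96.1%, 91.1 to 98.3) at gapped pairs. The shares are not fully alike in meaning, because the stretch upstream of 1 start of a pair is soon the inside of the other gene. For the regions centred inside a gene, the median distance was 296.5 bp (quartiles 209.75 and 401) at pairs and 383 bp (252.5 and 587) at lone starts. Here too the requirement of reaching both starts keeps the shared regions closer, and its part in the difference was not tested. The plot of region centres shows both sets.

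**Figure D4:**
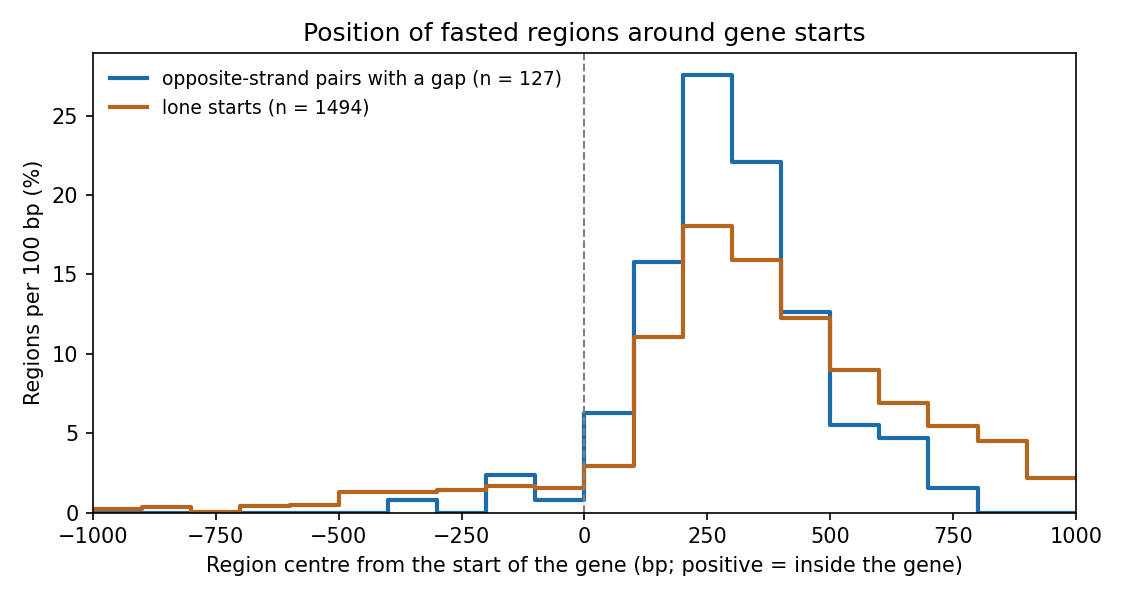
Position of region centres relative to the nearest gene start (horizontal axis, bp, positive inside the gene) for 127 regions at gapped opposite-strand pairs and for regions within 1 kb of lone starts (vertical axis, percent of the regions in each step of 100 bp). Both sets peak inside the gene, and the shared regions are gathered around their median of 291 bp.

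Where a start met a 3′ end, the regions lay mostly by the start. All 43 such regions touched a start. The rule and the class largely fix this, since a region must reach an end of both genes. Centred inside the gene whose start they touched were 38 (88.4%, 75.5 to 94.9). The regions at Cebpg/Gm45095, Limd2/Gm10840 and Cdca4/Gm52009 touched 2 starts and no 3′ end. The centres of the 43 lay a median of 281 bp inside the start. For those that touched a 3′ end, the median distance to the nearest one was 642 bp. Nearer to a start were 37 of the 43, a count that takes in the regions with no 3′ end touched. Over the 264 regions with all strands given, 263 (99.6%) touched at least 1 start. That count too follows in large part from the classes of their pairs. Of the 3 regions at pairs of 3′ ends, 2 touched the start of a short gene. At Lrrc26/Grin1 the centre was 374 bp inside Lrrc26, and at Rps21/Cables2 it was 224 bp inside Rps21, a gene for a protein of the small ribosomal subunit. The exception was Apoc2/Gm44805, the only region of the 264 that touched no start.

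Grouped by function, the genes of the shared regions came from many functions, and most lists lay near the background. Among all autosomal protein-coding genes, 676 of 20661 (3.27%) had a shared region. Only genes with another gene end within 2 kb can have one, and among these 6863 genes the share was 9.85%. The lists below were chosen with earlier results of these data known, so their counts are descriptions and were not tested. Each count of genes is set against the genes of the list that can have a shared region.

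Genes of energy metabolism were touched in small numbers. Of the oxidative phosphorylation genes, 9 of 54 (16.7%, 9.02 to 28.7) had a shared region. Uqcrq of complex III, paired with Gdf9, had a log-LR of 6.24. Atp5j of the ATP synthase, paired with Gabpa, had 6.09, and Gabpa encodes the DNA-binding ETS subunit of a factor that controls many mitochondrial genes. Atp5md/Pdcd11 had 5.95 and Uqcrb/Gm10767 had 4.74. Of the mitochondrial ribosome genes, 5 of 50 had one, among them Mrps34 (8.02), Mrpl49, paired with Fau (6.35), Mrpl14, paired with Tmem63b (5.03), and Mrpl38, paired with Trim65 (4.71). Of the tRNA synthetases, 3 of 19 had one, and all 3 act in mitochondria. These were Vars2 (9.35), Fars2, paired with Lyrm4 (5.95), and Iars2, paired with Bpnt1 (4.94).

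Ketone and fat metabolism gave 1 gene each. Of 3 ketone body genes that could have a shared region, Slc16a6, a transporter that carries ketone bodies out of hepatocytes, had one with Arsg (5.18). Of 14 genes of fatty acid oxidation, Crat had 2 with Ptpa (4.31 and 3.61). Crat encodes carnitine acetyltransferase, and Ptpa an activator of protein phosphatase 2A. Of 15 genes that write or erase histone acylation, 3 had one. They were Hdac3, paired with Rell2 (6.48), Sirt3, paired with Psmd13 (5.46), and Hdac10, paired with Tubgcp6 (3.44). Hdac3 and Sirt3 are known to remove beta-hydroxybutyryl groups from histones. Of 20 genes of insulin, mTOR and autophagy signalling, 4 had one and all 4 were autophagy genes. They were Atg12, paired with Ap3s1 (8.65), Atg4b with Thap4 (5.52), Atg9a with Abcb6 (5.14) and Atg3 with Slc35a5 (4.84). Atg12, Atg3 and Atg4b belong to the ubiquitin-like conjugation steps of autophagosome growth, and Atg9a is a membrane protein that seeds it.

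Of all 22 lists, that of the zinc finger genes alone had an interval wholly above the background of 9.85%, and the trafficking genes came close to it. Of the vesicle sorting and Rab genes, 14 of 87 (16.1%, 9.83 to 25.2) had a shared region. The leading pairs were Exoc5/Ap5m1 (7.06), Arfip2 with Trim3 (6.15), Rabgap1 with Zbtb26 (5.95) and Arf3 with LOC115488470 (5.69). Of the zinc finger genes named Zfp, 15 of 80 (18.8%, 11.7 to 28.7) had one. These 15 genes came from 12 gene pairs, so the interval, which counts genes as separate, is too narrow. Over all 391 Zfp genes the share was 3.84%, against 3.27% of all genes, and the list is not read as standing apart. They included Zfp91, paired with Lpxn (8.04), Zfp942 and Zfp943, which share 1 region (7.66), and Zfp654, paired with Cggbp1 (5.78). Zfp genes lie in clusters of related copies, and how reads were split among them was not tested.

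Genes of protein and RNA turnover lay near the background. Of the ubiquitin and proteasome genes, 9 of 85 (10.6%) had a shared region, led by Fbxw2 (8.77, given above) and Cul4a, a cullin scaffold, with Pcid2 (6.82). Of the splicing and RNA processing genes, 9 of 94 (9.57%) had one, with Ddx31/Gtf3c4 at 7.09, Hnrnpc/Rpgrip1 at 6.07 and Cpsf7, paired with Sdhaf2, at 5.68. Of the protein folding genes, 5 of 48 (10.4%) had one. They included Dnajc2, which shares its region with the proteasome ATPase gene Psmc2 (5.41), Dnajc8 with Atpif1 (5.07) and Cct6a with Psph (4.01). Of the DNA repair and replication genes, 2 of 34 had one. These were Lig4, the ligase of end joining, with Abhd13 (6.23), and Fancd2, of crosslink repair, with Emc3 (4.82).

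Histone genes lie close together in clusters, and 6 of 54 (11.1%) had a shared region. H2ac6 and H2bc4 shared 1 with a log-LR of 7.37, and H2ac22 and H2bc22 shared 1 of 4.22. H2ac18 and H3c14 shared 2, of 3.74 and 3.43. Histone genes are near-identical copies of each other, and how reads that match several copies were counted was not given in any source used, so these values are uncertain.

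Both genes belonged to the lists at several other pairs. Zfp668/Zfp646 had a log-LR of 5.32, Zfp786/Zfp398 had 4.83, and Vps9d1/Zfp276 had 2 regions of 4.43 and 4.30. Psmc2/Dnajc2, given above, joins the proteasome to a ribosome-bound chaperone.

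Of 11 pairs listed beforehand as textbook divergent pairs, 10 had ends within 2 kb and 7 were classed as opposite-strand starts. Over all opposite-strand start pairs, 203 of 976 (20.8%) held a shared region, and these few pairs are not read as standing apart. Of the 11, 2 held a shared region. These were Sirt3/Psmd13, at chromosome 7, 140882386 to 140882535, centred 66 bp inside Psmd13, and Surf1/Surf2, at chromosome 2, 26915994 to 26916116, in Surf1 (4.15). Surf1 is an assembly factor of cytochrome c oxidase. Pairs with no region of the list at their ends included Hspd1/Hspe1, Atm/Npat, Ppat/Paics, Prkdc/Mcm4, Col4a1/Col4a2, Col4a3/Col4a4 and Tap1/Psmb9. The ends of Acat2 and Tcp1 were not within 2 kb of each other in the gene table, so this listed pair was not classed as divergent here.

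Genes of specialised neural function were nearly absent from the shared regions, but few of them could have one. A region, shared or not, lay at an end of 2554 of the 20661 autosomal protein-coding genes (12.4%). Of 23 immediate early genes, 10 had a region at an end, none of them shared, and 4 had a neighbour within 2 kb. Of 36 synaptic genes, 10 had a region at an end, and Grin1 was the only one with a shared region among 10 with such a neighbour. Of the protocadherins, 43 of 67 had a neighbour within 2 kb, and 0 of 43 had a shared region (interval up to 8.20%). Which kinds of ends met at these genes was not split out. Pairs of 3′ ends held a region in only 0.649% of cases, so the 0 is not read as a lack. The 12 neuron markers and the 16 markers of liver, blood and muscle had no region at an end, and 2 of 18 glia and vessel markers had one, neither of them shared. Of 1104 olfactory receptors, which are mostly silent in cortex, 5 had a region at an end, and 0 of the 19 with a neighbour within 2 kb had a shared one.

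Promoter sequence differed between places with and without a region. RefSeq promoter windows of 300 bases (250 before and 50 after the start, on GRCm38.p6) were given for 16456 autosomal protein-coding genes, and 59.8% of them had the same start as the gene table. At opposite-strand pairs with a shared region the median window held 27 CpG (404 windows), against 22 at such pairs without one (1532 windows). At lone starts it held 25 CpG with a region and 9 without. The median GC content was 65.3% at the pairs with a shared region and 60.7% at the pairs without. The windows of a pair overlap, so these counts are not of separate stretches.

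Within the upper groups of CpG content, the order of pairs and lone starts depended on what was counted. The windows were divided into 4 groups by their number of CpG, from 0 to 4, 5 to 14, 15 to 25, and 26 to 65. At lone starts the share with a region centred in the first 1 kb of the gene was 0.582% (0.394 to 0.858), 6.02% (5.23 to 6.92), 14.7% (13.4 to 16.0) and 21.9% (20.4 to 23.5). At the starts of gapped pairs it was 2.90% (0.799 to 9.97), 8.51% (5.31 to 13.4), 9.11% (6.90 to 11.9) and 16.1% (13.1 to 19.7). In the upper CpG groups, with 505 and 477 starts of pairs, the pairs were thus below the lone starts and the intervals did not overlap. In the lower CpG groups the pairs were above the lone starts, but the intervals overlapped. The lowest held 69 starts of pairs, 2 of them with such a region, so little can be read there. A region of any position within 1 kb can count for both starts of a pair. By that measure, the order in the upper groups was the other way. The shares were then 17.2% (14.2 to 20.8) at pairs and 15.7% (14.4 to 17.05) at lone starts in the group of 15 to 25 CpG, and 30.8% (26.8 to 35.1) and 24.8% (23.2 to 26.4) in the highest. For 0 to 4 CpG they were 13.0% (7.02 to 23.0) at pairs and 0.698% (0.490 to 0.995) at lone starts. For 5 to 14 CpG they were 17.0% (12.3 to 23.0) and 6.48% (5.66 to 7.40). In these lower groups the intervals did not overlap, but 1 region can again count for both starts of a pair. The rule on the reach to both starts does not enter either measure, as listed regions were counted whether shared or not. The plot of share by CpG content shows both series.

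**Figure D5:**
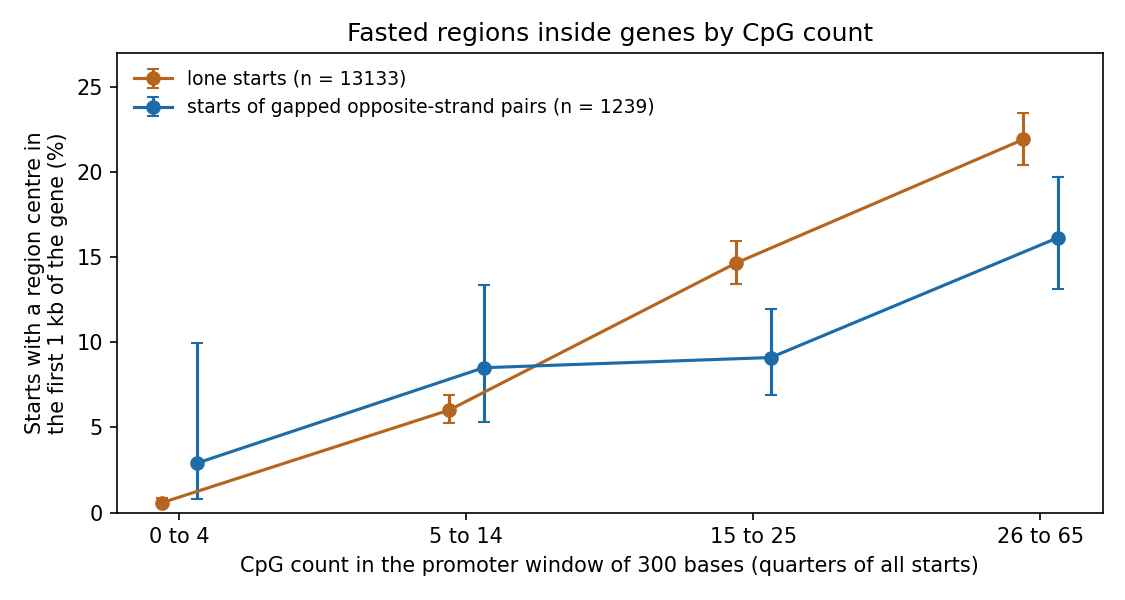
Share of starts with a region centred in the first 1 kb of the gene (vertical axis, percent, with 95% Wilson intervals) by the number of CpG in the promoter window, for lone starts and for starts of gapped opposite-strand pairs. Both rise with CpG, and in the highest CpG group lone starts stand at 21.9% and pairs at 16.1%.

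Motifs were searched on both strands of the windows. The ETS motif CCGGAAG was more frequent at pairs of either kind than at lone starts with a region or over all windows. It was found in 30.2% of the windows of pairs with a shared region (25.9 to 34.8) and 24.2% of those of pairs without (22.1 to 26.4), against 13.7% of lone starts with a region and 12.3% of all windows. CCAAT was found in 35.4%, 42.04%, 34.1% and 39.1% in the same order, with intervals of 30.9 to 40.2 and 39.6 to 44.5 for the first 2, which overlapped. The SP1 motif GGGCGG was found in 65.8%, 62.5%, 74.96% and 47.3%. The TATA motif TATAAA was found in 4.46%, 6.20%, 5.92% and 13.5%.

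The remaining motifs differed little between pairs with and without a region. The CRE motif TGACGTCA, bound by CREB, was found in 4.70% of the windows of pairs with a shared region and 3.26% of those without. The short CRE TGACG, which is part of it, was found in 37.4% and 36.6%. The E-box CACGTG was found in 11.1% and 10.8%. The NRF1 core GCGCATGC was found in 4.95% and 6.01%, and the YY1 core AAGATGGCG in 4.21% and 4.83%, and both cores were chosen after the full motifs had been searched. A match is only a match of letters.

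The shared regions were spread over every autosome, from 7 on chromosome 18 to 37 on chromosome 2. The share of opposite-strand pairs with a shared region ran from 13.1% on chromosome 8 (8 of 61) to 45.2% on chromosome 6 (14 of 31). Chromosome 18 is not in this range or in any other count by strand, since no strand was given for its genes, and its 457 pairs are among the 1657 with a strand not given. Of the 353 regions, 16 also lay within 1 kb of an end of a non-coding gene, which was a long non-coding RNA in 12 cases. Those near a small RNA were Rps21/Cables2, by the microRNA gene Mir3091, Gspt1/LOC115488671, by Mir1945, and Wbp4/Elf1, by a transfer RNA gene.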

How the data were processed

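H3K9bhb immunoprecipitates and inputs from mouse occipital cortex were sequenced, with 4 libraries of each kind per feeding state. Per the submitters' processing notes, the tools were Bowtie2 and MACS2 and the build was mm10. The deposited lists, 1 per state, give regions with a log-LR, used here as a score of the authors that ranks regions within a list. Per the file headers, each value compares the states. For the logarithm's base, cutoff, scaling and any pooling of libraries, the sources used here give nothing, and no depth or precision per library follows from the lists. Starts were counted from 0 and are given from 1.

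Gene ends were taken from the RefSeq gene table (GRCm38.p6), and strand from the RefSeq promoter table, which held 16456 of 20661 autosomal protein-coding genes. Exons and introns were not used here. Regions were counted at ends of genes within 1 kb, and shares have 95% Wilson intervals, while medians have intervals from order statistics. The members and gene lists were chosen with earlier results of these data known. Genes named are those of the 10 regions of highest log-LR, the 5 widest, the regions at 3 genes, up to 4 per list, pairs with both genes in lists and the textbook pairs. Those chosen otherwise are examples named after their values were seen. Lists that use the first letters of symbols (such as Zfp or Rab) can hold other genes. A few items are not reported here. The counting was tested on made-up genes and regions. Counts were made with pandas 2.3.3 and numpy 2.4.6 in Python 3.11.15, intervals with scipy 1.17.1, and plots with matplotlib 3.10.9. Alternatives were other windows, overlap by the centre, merging within 1 kb, runs kept, fewer genes and a log-LR of at least 5.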

Additional observations from a re-analysis of the deposited data

Results flagged for a closer look

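The rule on runs left out 11 autosomal regions at the ends of 2 or more protein-coding genes, and these were singled out because they carry a value in data that the counts above do not use. Their log-LR ran from 5.03 to 13.5 with a median of 6.80. They lay at Ugt1a8/Ugt1a6b on chromosome 1 (8.17 and 13.5), H2bc23/H2ac23 (7.74) and H4c18/H2ac24/H4bc24 (7.18) on chromosome 13, Rhof/Setd1b on chromosome 5 (6.66 and 5.57), 4 times at neighbouring Gm genes on chromosome 6 (5.03 to 8.71) and at Gm51571/Gm51572 on chromosome 8 (6.15). The Ugt1a genes are annotated as alternative first exons of 1 locus, so their count as different genes is uncertain. Setd1b encodes an H3K4 methyltransferase.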

How the results depend on the processing

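Over 10 results and the alternatives tried, 55 of 81 values stayed within the interval of the value reported (for the number of regions, within 1.5 times) and 26 did not. With a window of 500 bp, 223 regions were shared, 6.52% of gene pairs and 4.34% of single ends held a region, 86.0% of the shared regions lay at opposite-strand starts, 2.14% of genes had one, and the shares were 17.1% of opposite-strand pairs and 8.67% of lone starts. With 3 kb, the values were 568 regions, 7.29% of single ends, 64.1% at opposite-strand starts, 5.21% of genes and 12.9% of lone starts. Without pairs whose bodies overlap, 219 regions and 2.06% of genes were left. Without Gm and Rik genes, 5.82% of single ends and 11.25% of lone starts held a region. With a log-LR of 5 or more, 162 regions were left, with a median log-LR of 6.22, a median width of 232.5 bp, 84.0% at opposite-strand starts, and regions at 3.66% of gene pairs, 2.72% of single ends, 1.56% of genes, 10.8% of opposite-strand pairs and 5.24% of lone starts. Fewer regions or places by construction lower these counts. The difference of the median log-LR, shared minus single-end regions, was -0.0948 and became 0.147 at a log-LR of 5 or more, where the cause was not tested. Its sign differed among the other alternatives (-0.164 to 0.0387), so it has no stable direction. The share of opposite-strand pairs exceeded that of lone starts in 8 of 8 alternatives, and both shares were split out after the data were seen. A pair offers more genes in which a region can lie than a lone start does. These alternatives therefore say nothing on the share per start, which was not recomputed under them. No paired analysis was possible because single libraries have no values in these lists, and for the same reason no replicate was left out.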
